A study of Mus musculus with 12 samples.

Results

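The genes of fatty acid uptake, binding and activation in 3T3-L1 cells were examined here as a set of 10: Lpl, Cd36, Slc27a1, Slc27a3, Slc27a4, Fabp4, Fabp5, Acsl1, Acsl3 and Acsl4. They were chosen by symbol from the 55487 genes of the table, each symbol had 1 row, and all 10 were among the 15968 genes that passed the filter on low values (at least 1 TPM in at least 2 libraries). 3T3-L1 is a mouse fibroblast line that accumulates lipid and turns into adipocyte-like cells after hormonal induction. Cells carrying a scrambled hairpin (shScram) or a hairpin against the m6A demethylase gene Fto (shFTO) were sampled before induction (Pre, preadipocytes), during mitotic clonal expansion (MCE), when growth-arrested cells divide again after induction, and after differentiation (Diff). The 6 groups had 2 libraries each of fragmented total RNA without m6A immunoprecipitation. Both lines were made with lentivirus and puromycin selection, and it is not stated here which of the Fto hairpins the sequenced cells carried or whether a line was 1 clone. Replicate 1 of shScram Diff has a title naming shScram and a treatment entry naming the Fto knockdown, and it was placed by its title. Its Fto level was 73.5 TPM, beside 70.8 TPM in replicate 2 and 7.47 and 7.05 TPM in the shFTO Diff libraries. The comparison between the lines asks how these genes differ when Fto is reduced, and the comparison between stages asks how they follow differentiation.

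Fatty acids reach a fat cell by several successive steps. Lipoprotein lipase, encoded by Lpl, is secreted and releases fatty acids from circulating triglyceride. CD36 and the FATP proteins of the Slc27a family move them across or along the plasma membrane. Fatty acid-binding proteins such as FABP4 and FABP5 carry them through the cytosol. The long-chain acyl-CoA synthetases of the ACSL family join them to coenzyme A, which traps them in the cell and makes them available for triglyceride synthesis or oxidation. Cd36, Fabp4, Lpl and Acsl1 are known as genes that rise when preadipocytes become adipocytes and as targets of the nuclear receptor PPARg.

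The knockdown was present at all 3 stages, with 5.51 to 7.47 TPM of Fto in the 6 shFTO libraries and 52.7 to 73.5 TPM in the 6 shScram libraries. TPM is a gene's share of all transcripts in a library, corrected for length, so levels can be compared between genes, but the depth behind a value is unknown. Between the replicates of a group, r over log2(TPM + 1) of the genes, which are not independent of each other, was 0.939 for shScram preadipocytes and 0.990 to 0.993 in the other groups. Markers of the adipocyte (8 genes, of which Lep did not pass the filter) summed to 248 to 254 TPM in shScram against 31.3 to 36.6 TPM in shFTO cells at Diff. At MCE the sums were 59.5 to 65.2 and 22.6 to 25.1 TPM, and in preadipocytes they were 10.6 to 12.6 and 11.7 to 11.8 TPM. In preadipocytes of both lines 6 of the 8 markers were under 1 TPM. Pparg, at 9.06 to 10.3 TPM, made up most of each sum there, so the preadipocyte sums describe mainly that gene. None of the 7 adipocyte markers tested was called between the lines in preadipocytes, against 15.9% higher and 12.3% lower of all genes tested. In shFTO cells 5 were lower at MCE, against 7.26% of all genes, and 6 at Diff, against 9.31%. These counts include Retn among the markers tested, which passed the filter only through shScram libraries at MCE and Diff. A call of Retn as lower therefore follows from the filter and is no support. All 6 fibroblast markers were expressed throughout, with a sum of 3750 to 3783 TPM in shScram against 6905 to 7239 TPM in shFTO cells at Diff, 1609 to 1788 against 4520 to 4824 TPM at MCE, and 2127 to 3712 against 3929 to 3995 TPM in preadipocytes. Of these 6, 3 were higher and 1 lower in shFTO preadipocytes, against 15.9% and 12.3% of all genes tested. At MCE 4 were higher, against 10.5%, and at Diff 3, against 11.9%. Of 6 macrophage markers 2 passed the filter and the sum was at most 10.98 TPM, while none of 5 endothelial markers passed it. Of these 2 macrophage markers, 1 was higher in shFTO preadipocytes, against 15.9% of all genes, and none was called at MCE or Diff. In such bulk samples, fewer cells of a type and less RNA per cell cannot be told apart, and the part of the marker shift in the differences described here was not tested.

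In shFTO cells at MCE and Diff, Cd36, Fabp4, Fabp5 and Acsl1 were lower, and Acsl3 and Acsl4 were higher, than in shScram cells. Lpl was higher in shFTO preadipocytes and at MCE, whereas its levels at Diff lay close together. Within the ACSL family the directions were opposite. Differences were tested with limma on the log2(TPM + 1) scale over the 15968 genes, and a gene was called at a Benjamini-Hochberg adjusted p under 0.05. In preadipocytes 2 of the 10 genes were higher in shFTO cells, against 15.9% of all genes tested, and none was lower, against 12.3%. Without adjustment, 2 of the genes not called as lower, Acsl1 and Acsl3, had a p under 0.05. With median-ratio scaling between libraries, the preadipocyte count became 2 higher and 1 lower, and 29.5% of all genes were called. It also depended on single libraries, with 7 genes called without replicate 2 of shScram preadipocytes (where 62.8% of all genes were called, against 28.2% with all libraries), none without either shFTO preadipocyte library, and 1 without any 1 library of shFTO at MCE or of either line at Diff. At MCE 3 were higher and 4 lower, against 10.5% and 7.26% of all genes. At Diff 2 were higher and 4 lower, against 11.9% and 9.31%. The median log2 fold change of the 10 genes was 0.12, -0.18 and -0.44 at the successive stages, beside 0.08, 0.05 and 0.03 over all genes tested. Since the genes were chosen with results of these data known, these counts describe the set and are no test of it.

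**Figure D1:**
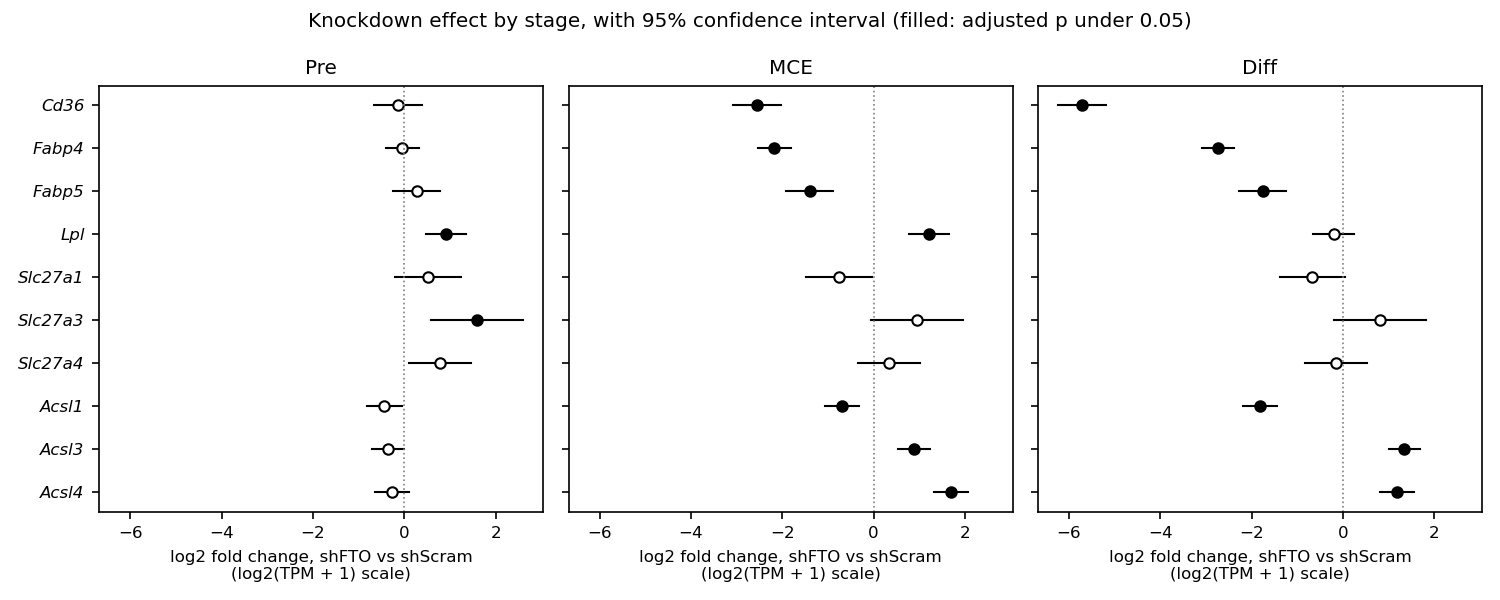
Log2 fold change of each of the 10 genes between shFTO and shScram cells (x axis, log2(TPM + 1) scale) at the 3 stages, with bars for the 95% confidence interval from limma and filled points for an adjusted p under 0.05. Cd36 moves from -0.14 in preadipocytes to -2.56 at MCE and -5.71 at Diff, while Acsl3 and Acsl4 lie to the right of 0 at the later stages.

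Promoter sequence was also looked at, as a description only. RefSeq windows (GRCm38.p6) of 250 bases before a start site were held for 7 of the 10 genes, in 10 windows. Neither a relaxed PPAR-RXR direct repeat (AGGNCA, any 1 base, AGGNCA, on both strands) nor a C/EBP motif (TTGC, any 2 bases, AA) occurred in any of them. Among all 32851 windows of that length, 0.338% held the first and 9.56% the second. The windows of Cd36, Acsl1 (which has 2 starts), Acsl3 and Acsl4 are shown as those of the called genes with opposite directions for which a window was held, and Fabp4, Fabp5 and Lpl had none. Capitals mark a GC box (GGGCGG) or a CCAAT box (CCAAT) on either strand, motifs that were picked after the windows had been read and that occur in 32.7% and 33.8% of all windows. They adjoin or overlap where a run of capitals is longer than 6 letters.
Cd36, chr5:17835897-17836146, minus strand: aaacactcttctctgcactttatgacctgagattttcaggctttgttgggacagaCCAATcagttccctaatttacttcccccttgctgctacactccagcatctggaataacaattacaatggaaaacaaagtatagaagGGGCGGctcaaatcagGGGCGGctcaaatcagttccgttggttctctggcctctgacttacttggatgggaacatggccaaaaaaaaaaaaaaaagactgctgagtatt
Acsl1, first start, chr8:46470787-46471036, plus strand: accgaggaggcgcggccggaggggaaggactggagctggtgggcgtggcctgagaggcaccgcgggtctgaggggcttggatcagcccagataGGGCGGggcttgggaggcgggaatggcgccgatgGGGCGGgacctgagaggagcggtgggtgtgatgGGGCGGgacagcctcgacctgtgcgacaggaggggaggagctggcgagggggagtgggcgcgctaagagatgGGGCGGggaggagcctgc
Acsl1, second start, chr8:46490716-46490965, plus strand: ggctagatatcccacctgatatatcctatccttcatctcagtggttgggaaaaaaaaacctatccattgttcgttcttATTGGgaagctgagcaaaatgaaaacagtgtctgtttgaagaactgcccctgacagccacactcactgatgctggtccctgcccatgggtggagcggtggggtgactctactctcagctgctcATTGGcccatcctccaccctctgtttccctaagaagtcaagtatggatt
Acsl3, chr1:78657575-78657824, plus strand: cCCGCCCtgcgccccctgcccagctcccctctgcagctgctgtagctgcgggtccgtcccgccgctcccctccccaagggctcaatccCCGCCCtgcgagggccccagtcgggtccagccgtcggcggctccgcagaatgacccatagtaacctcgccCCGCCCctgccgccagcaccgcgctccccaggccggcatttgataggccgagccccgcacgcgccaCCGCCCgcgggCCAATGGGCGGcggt
Acsl4, chrX:142390536-142390785, minus strand: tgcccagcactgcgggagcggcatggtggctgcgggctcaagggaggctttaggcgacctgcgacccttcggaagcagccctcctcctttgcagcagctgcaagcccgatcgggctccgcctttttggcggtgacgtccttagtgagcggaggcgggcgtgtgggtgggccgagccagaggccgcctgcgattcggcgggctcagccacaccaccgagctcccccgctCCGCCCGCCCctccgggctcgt
The Acsl3 window had a GC content of 75.6% with 28 CpG dinucleotides, and the Acsl4 window 70.8% with 25. The first Acsl1 window resembled them (72.0% and 20), while the second held 2 CpG at 48.4% GC and the Cd36 window 3 CpG at 43.2%. The medians over all windows were 52.4% GC and 6 CpG. The bases after the Cd36 window, which lies within the gene (chr5:17781690-17888801), matched no transcript start in the GENCODE annotation used here. Those after the Acsl windows shown did match one. The Slc27a1 windows, not shown, had no match either. These letters describe the windows only, and which start the cells used was not measured.

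Lpl (ENSMUSG00000015568, GRCm38 chr8:68880491-68907448) had the highest mean of the 10 genes in preadipocytes of both lines. The shScram libraries held 174 and 112 TPM in preadipocytes, 92.4 and 77.1 TPM at MCE, and 303 and 333 TPM at Diff. The shFTO libraries held 247 and 281 TPM, 196 and 199 TPM, and 282 and 269 TPM at the same stages. The lines did not overlap at any stage, but shFTO cells were above shScram cells at the first 2 stages and below them at the last. The higher level in shFTO preadipocytes corresponded to a log2 fold change of 0.91 ± 0.20 (SE, limma adjusted p = 0.0124), and at MCE it was 1.22 ± 0.20 (adjusted p = 0.00324). The preadipocyte call was lost without either shFTO library of that stage (adjusted p = 0.0545 and 0.0758), and the fold change was 0.60 without replicate 2 of shScram. At Diff the difference was -0.21 (95% interval -0.65 to 0.24, adjusted p = 0.515), which does not show equal levels. The order of the group means was shScram Diff, shFTO Diff, shFTO Pre, shFTO MCE, shScram Pre and shScram MCE, and the libraries of neighbours overlapped only between shFTO Diff and shFTO Pre.

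Several genes act on LPL after its synthesis. Of 10 listed partners, inhibitors and relatives, 6 passed the filter. At Diff 1 was higher in shFTO cells, against 11.9% of all genes. Apart from Gpihbp1, 1 was lower (Angptl4), against 9.31%. Gpihbp1, whose product anchors LPL on capillary endothelium, was at 2.03 and 1.72 TPM in the shScram libraries of that stage and listed at 0 in all other groups. It passed the filter only through that group and was chosen after its values were seen. No test is therefore given for it, and it is left out of the count of lower genes. Angptl4 encodes a secreted inhibitor of LPL. It was at 106 and 83.6 TPM in shScram against 57.3 and 51.4 TPM in shFTO cells at Diff, a log2 fold change of -0.78 (adjusted p = 0.0237). That call was lost without replicate 1 of shScram Diff (-0.61, adjusted p = 0.161) and without either shFTO Diff library (adjusted p = 0.0791 and 0.144). At MCE its levels were 66.8 and 62.8 TPM against 92.9 and 92.7 TPM, which was not called (adjusted p = 0.120). Vldlr, the receptor for triglyceride-rich lipoproteins, was at 101 TPM in both shFTO libraries of Diff and at 48.3 and 49.5 TPM in shScram (1.03, adjusted p = 0.000325).

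Cd36 (ENSMUSG00000002944, GRCm38 chr5:17781690-17888801) encodes a scavenger receptor that takes up long-chain fatty acids. It was nearly silent in preadipocytes, at 0.0340 and 0.176 TPM in shScram while both shFTO libraries list it at 0. It reached 13.03 and 12.83 TPM in shScram against 1.65 and 1.11 TPM in shFTO cells at MCE. The shScram libraries then reached 148 and 151 TPM at Diff, and the shFTO libraries 2.71 and 1.24 TPM. The lines were thus far apart at both later stages, and shFTO cells after differentiation remained below shScram cells at MCE. The mean in shFTO cells was 9.36-fold lower at MCE and 75.9-fold lower at Diff. On the log2(TPM + 1) scale the changes were -2.56 ± 0.23 (adjusted p = 0.000143) and -5.71 ± 0.23 (SE, adjusted p = 1.34e-06). In the order of the groups, shFTO Diff and shFTO MCE overlapped and all other neighbours were apart.

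The FATP family is encoded by Slc27a genes. FATP1 (Slc27a1) and FATP4 (Slc27a4) are transporters with acyl-CoA synthetase activity, and Slc27a3 encodes a related protein. Slc27a1 (ENSMUSG00000031808, GRCm38 chr8:71568882-71587302) was at 16.9 and 41.3 TPM in shScram against 36.3 and 41.2 TPM in shFTO preadipocytes. At MCE its levels were 14.8 and 15.7 TPM in shScram against 8.11 and 9.16 TPM in shFTO cells, and at Diff they were 57.7 and 54.4 against 35.3 and 34.4 TPM. Only the preadipocyte libraries of the lines overlapped. Slc27a3 (ENSMUSG00000027932, GRCm38 chr3:90385239-90389938) was the lowest of these 3 genes in shScram cells, with 1.06 and 5.88, then 3.82 and 5.07, then 7.998 and 8.963 TPM at the 3 stages. In shFTO cells it was at 9.20 and 11.6, 9.58 and 9.38, and 15.8 and 15.3 TPM, above both shScram libraries at every stage. Slc27a4 (ENSMUSG00000059316, GRCm38 chr2:29802634-29817522) was at 8.07 and 18.8, 21.27 and 20.98, and 19.7 and 15.5 TPM in shScram cells at the 3 stages. The shFTO libraries held 22.3 and 21.5, 27.4 and 26.3, and 15.99 and 15.45 TPM, above shScram at the first 2 stages and overlapping with it at Diff. In the order of group means, shScram Diff led for Slc27a1, shFTO Diff for Slc27a3 and shFTO MCE for Slc27a4. Neighbours overlapped between shFTO Diff and shScram Pre for Slc27a1, between the other shFTO groups and between shScram MCE and Pre for Slc27a3, and among the 3 lowest groups (shScram Diff, shFTO Diff and shScram Pre) for Slc27a4.

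Of the 3 FATP genes, Slc27a3 was called once, in preadipocytes, with a log2 fold change of 1.59 ± 0.44 (SE, limma adjusted p = 0.0306). That call rests on few libraries, since the change was 0.72 without replicate 1 and 2.46 without replicate 2 of shScram preadipocytes, and it was lost without either shFTO preadipocyte library (adjusted p = 0.104 and 0.132). It was also narrowly lost without any 1 of the 6 libraries of shFTO at MCE and of both lines at Diff (adjusted p = 0.0506 to 0.0515). No FATP gene was called at MCE or Diff, where Slc27a1 had log2 fold changes of -0.76 (adjusted p = 0.146, unadjusted p = 0.0418) and -0.67 (adjusted p = 0.178). The shScram preadipocyte replicates, which take part in the common estimate of the spread, differed 2.44-fold in Slc27a1, 5.54-fold in Slc27a3 and 2.33-fold in Slc27a4. With both of these libraries left out of the fit, all 3 genes were called at MCE (Slc27a1 -0.76, Slc27a3 0.95, Slc27a4 0.33) with adjusted p = 0.000142, 0.000583 and 0.0331, in a fit that called 41.0% of all genes at MCE, against 17.8% with all libraries. At Diff Slc27a1 and Slc27a3 were then called (adjusted p = 0.000288 and 0.00148), and Slc27a4 was not, while the share of all genes called went from 21.2% to 45.7%.

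Paralogues were also compared within each library, as the log2 ratio of their values of TPM + 1. Differences in log2 ratio between the lines, averaged over the stages, were tested by a two-sided exact permutation of the line labels within stages, whose smallest possible p is 0.00926. The ratio of Slc27a1 to Slc27a3 was lower by 1.42 on the log2 scale in shFTO cells (difference -1.42, exact permutation p = 0.00926, adjusted p = 0.0216 over 7 ratios). It went from 2.87 to 1.80 in preadipocytes, from 1.59 to -0.12 at MCE and from 2.59 to 1.11 at Diff. The ratio of Slc27a1 to Slc27a4 differed by -0.62 and that of Slc27a3 to Slc27a4 by 0.80, each with the same exact permutation p. Within the FATP and the ACSL genes, each of the 3 ratios follows from the other 2, so they are not independent tests. Slc27a3 made up 10.4% ± 1.42 of the summed TPM of the 3 genes in shScram and 23.6% ± 0.0327 in shFTO cells at Diff (SD, n = 2 each). Slc27a1 made up 68.3% ± 1.00 and 52.7% ± 0.120 of the same sums.

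Fabp4 (ENSMUSG00000062515, GRCm38 chr3:10204088-10208576) encodes the fatty acid-binding protein of adipocytes, and Fabp5 (ENSMUSG00000027533, GRCm38 chr3:10012548-10016607) its epidermal relative on the same chromosome. Fabp4 started low in both lines, at 7.66 and 8.60 TPM in shScram against 9.01 and 6.86 TPM in shFTO preadipocytes. It was at 211 and 231 against 44.1 and 52.7 TPM at MCE. At Diff it was the most abundant of the 10 genes in shScram cells with 876 and 836 TPM, while shFTO cells held 138 and 118 TPM. The lines overlapped only in preadipocytes, and shFTO cells after differentiation stayed below shScram cells at MCE. The log2 fold changes at MCE and Diff were -2.17 ± 0.16 (adjusted p = 4.7e-05) and -2.74 ± 0.16 (SE, adjusted p = 7.83e-06), that is 4.56-fold and 6.70-fold lower means.

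Fabp5 behaved differently with time. It was already at 78.6 and 137 TPM in shScram against 139 and 114 TPM in shFTO preadipocytes, where the lines overlapped. The shScram libraries held 129 and 145 TPM at MCE and 194 and 173 TPM at Diff, whereas the shFTO libraries held 53.1 and 49.5, then 53.7 and 53.2 TPM. The lines were apart at both later stages, with log2 fold changes of -1.40 ± 0.23 (adjusted p = 0.00341) and -1.76 ± 0.23 (SE, adjusted p = 0.000856). Fabp5 shares sequence with other genes, since 28.7% of the 40-base words of its transcript 201 occur in transcripts of 5 other genes, foremost Gm6166. Gm6166 had means of 54.4 TPM in shScram against 17.2 TPM in shFTO cells at Diff, and reads of both cannot be told apart where the sequence is shared. In the order of the Fabp5 means, shScram Diff led and shFTO MCE came last, and shScram MCE, shFTO Pre and shScram Pre overlapped as neighbours.

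The balance between both binding proteins turned over during differentiation. Fabp4 made up 7.394% ± 2.0995 of their summed TPM in shScram preadipocytes, 61.7% ± 0.408 at MCE and 82.4% ± 0.688 at Diff (SD, n = 2 each). In shFTO cells the shares were 5.89% ± 0.290, 48.5% ± 4.35 and 70.4% ± 2.17. The sum itself was 1040 ± 43.2 TPM in shScram against 181 ± 14.4 TPM in shFTO cells at the last stage. Averaged over the stages, the log2 ratio of Fabp4 to Fabp5 was lower in shFTO cells (difference -0.69, exact permutation p = 0.0185, adjusted p = 0.0324 over 7 ratios).

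Acsl1 (ENSMUSG00000018796, GRCm38 chr8:46471037-46536051) encodes the main acyl-CoA synthetase of adipocytes. It was at 10.1 and 13.8 TPM in shScram against 8.78 and 8.18 TPM in shFTO preadipocytes. At MCE it was at 29.6 and 29.0 against 18.7 and 16.7 TPM, and at Diff at 62.0 and 68.2 against 16.1 and 19.5 TPM. The lines did not overlap at any stage, and the gap was widest after differentiation. The log2 fold change was -0.70 ± 0.17 (adjusted p = 0.0206) at MCE and -1.82 ± 0.17 (SE, adjusted p = 0.000117) at Diff. The call at MCE was lost without any 1 of the 4 libraries of that stage (adjusted p = 0.0781 to 0.144). In preadipocytes the change was -0.44 (adjusted p = 0.0776), and it was called without replicate 1 of shScram (-0.65, adjusted p = 0.00574) and with median-ratio scaling (-0.52, adjusted p = 0.0289). In the order of the groups, shFTO Diff and shFTO MCE overlapped.

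Acsl3 (ENSMUSG00000032883, GRCm38 chr1:78657825-78707743) encodes a synthetase of the endoplasmic reticulum and lipid droplets. It was highest in preadipocytes, at 100 and 76.1 TPM in shScram against 61.3 and 75.0 TPM in shFTO cells. At MCE the shScram libraries held 17.0 and 17.3 TPM and the shFTO libraries 32.2 and 32.6 TPM. At Diff the values were 12.1 and 12.4 against 32.1 and 33.0 TPM. The shFTO libraries lay above the shScram libraries at both later stages. In preadipocytes they lay below, but the nearest libraries of the lines (76.1 and 75.0 TPM) almost met, and the difference was not called. Its log2 fold change ran from -0.48 to -0.36 in 6 other settings, none of which called it. Without 1 library it ran from -0.56 to -0.16, so a reversal of direction after preadipocytes is not established for Acsl3. The log2 fold change was 0.88 ± 0.15 (adjusted p = 0.00463) at MCE and 1.34 ± 0.15 (SE, adjusted p = 0.000405) at Diff. Acsl3 shares exons with Utp14b on the same strand, and Utp14b had a mean of 2.84 TPM over the 12 libraries. Only shFTO Diff and shFTO MCE overlapped as neighbours in the order of the Acsl3 means.

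Acsl4 (ENSMUSG00000031278, GRCm38 chrX:142317993-142390535) encodes a synthetase that prefers arachidonic acid. It was at 91.7 and 67.1 TPM in shScram against 58.5 and 71.2 TPM in shFTO preadipocytes, where the lines overlapped. In shScram cells it went to 47.2 and 44.2 TPM at MCE, while in shFTO cells it went up to 151 and 149 TPM. The values were 46.8 and 53.0 against 110 and 118 TPM at Diff. Acsl4 was higher in shFTO cells by 1.69 ± 0.16 (adjusted p = 0.000209) at MCE and by 1.18 ± 0.16 (SE, adjusted p = 0.00125) at Diff, both as log2 fold changes. In the order of the groups, shFTO MCE and shFTO Diff led for Acsl4, and shScram Pre overlapped with shFTO Pre and shScram Diff with shScram MCE.

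The opposite directions left the lines with different compositions of Acsl1, Acsl3 and Acsl4 transcripts. Acsl1 made up 6.90% ± 2.71 of the summed TPM of Acsl1, Acsl3 and Acsl4 in shScram preadipocytes, 31.8% ± 0.324 at MCE and 51.2% ± 0.133 at Diff. In shFTO cells its share was 6.06% ± 1.08, 8.85% ± 0.590 and 10.8% ± 0.884 (SD, n = 2 each). Acsl4 made up 39.2% ± 0.683 in shScram and 69.4% ± 0.178 in shFTO cells at the last stage. The sum of the 3 genes was 164 ± 9.08 TPM in shFTO and 127 ± 8.95 TPM in shScram cells at that stage. The log2 ratios of Acsl1 to Acsl3 and of Acsl1 to Acsl4 were lower in shFTO cells by averages of -1.60 and -1.85 (exact permutation p = 0.0278 each, adjusted p = 0.0324 over 7 ratios). Without replicate 2 of shScram preadipocytes the adjusted p of both was 0.0540. For Acsl3 to Acsl4 the difference was -0.24 (exact permutation p = 0.241). These averages cover unlike stages. In preadipocytes, at MCE and at Diff the differences were -0.07, -1.58 and -3.16 for Acsl1 to Acsl3. For Acsl1 to Acsl4 they were -0.16, -2.39 and -2.99, and for Acsl3 to Acsl4 -0.08, -0.81 and 0.17.

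**Figure D2:**
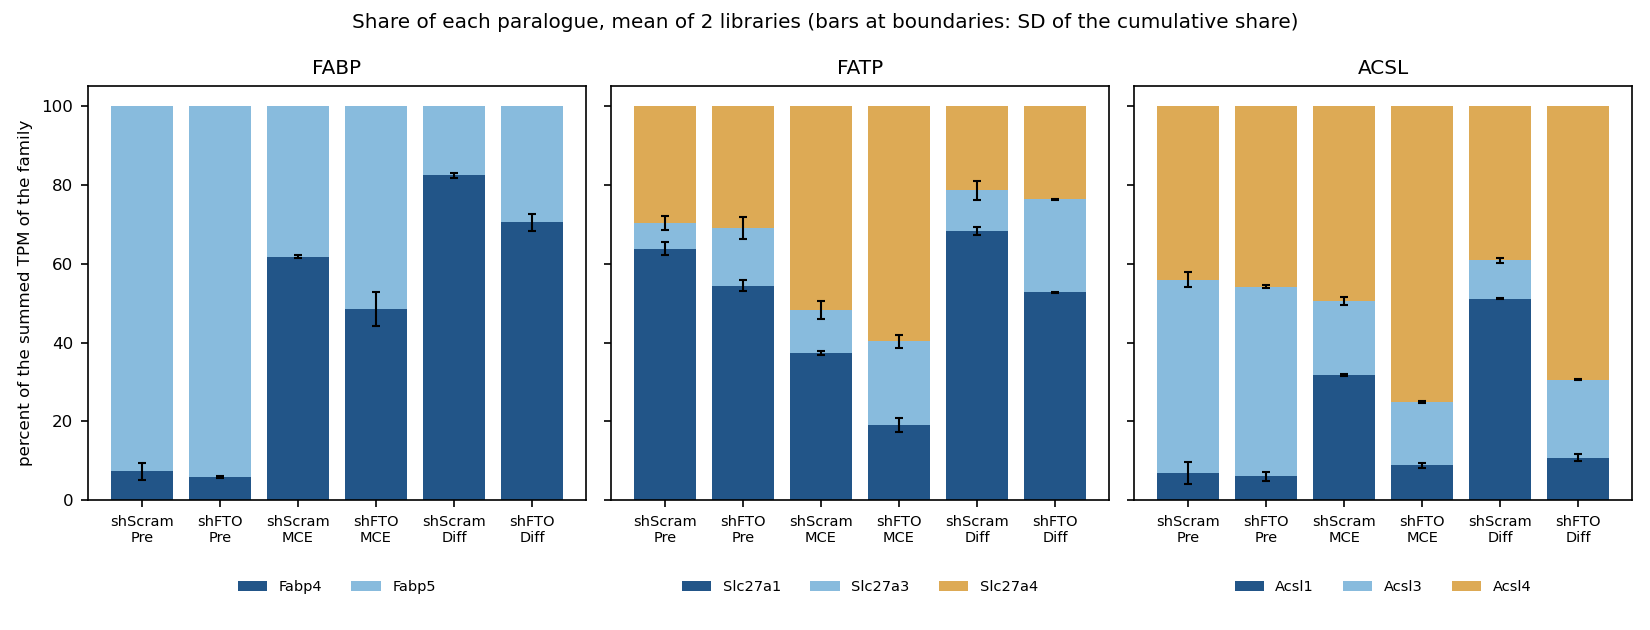
Mean share (y axis, percent of the summed TPM) of each paralogue in the FABP, FATP and ACSL genes examined, for the 6 groups with 2 libraries each, with bars at the boundaries for the SD of the cumulative share. Acsl1 takes 51.2% of the sum of Acsl1, Acsl3 and Acsl4 in shScram cells at Diff and 10.8% in shFTO cells, where Acsl4 takes 69.4%. Acsl5 is not part of the sum.

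**Figure D3:**
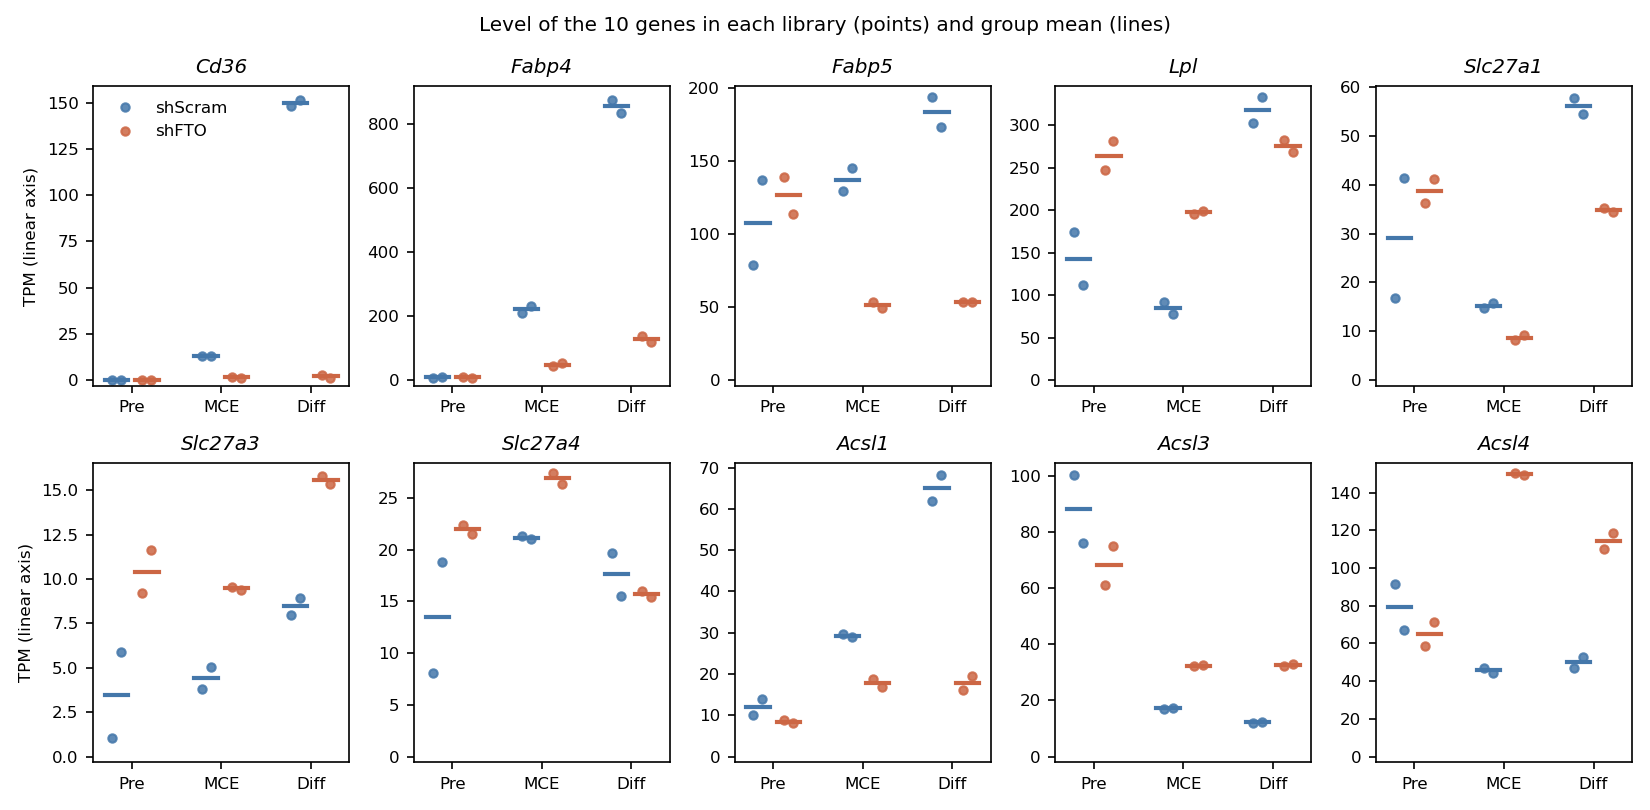
Level of the 10 genes (y axis, TPM, linear and scaled to each gene) in each of the 12 libraries by stage, with points for libraries and lines for group means. Cd36 and Fabp4 climb from stage to stage in shScram cells and lie below them in shFTO cells at MCE and Diff, where Cd36 is at most 2.71 TPM.

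Next, each line was compared between stages. From preadipocytes to MCE, 3 of the 10 genes rose in shScram cells (Cd36, Fabp4 and Acsl1) and 3 fell (Lpl, Acsl3 and Acsl4), against 12.2% and 26.9% of all genes tested. In shFTO cells 4 rose (Cd36, Fabp4, Acsl1 and Acsl4) and 3 fell (Fabp5, Slc27a1 and Acsl3), against 8.8% and 19.9%. Acsl4 was called in both lines with opposite signs, at -0.77 ± 0.16 in shScram (adjusted p = 0.00676) and 1.20 ± 0.16 in shFTO cells (SE, adjusted p = 0.000750). With only the shScram libraries of both stages in the fit, Acsl4, Lpl and Acsl1 were not called in shScram cells (limma adjusted p = 0.151, 0.216 and 0.0827). That fit called 3.16% of all genes, against 39.1% with all libraries. Fabp4 rose 27.2-fold in mean TPM in shScram and 6.10-fold in shFTO cells. The fall of Slc27a1 in shFTO cells (-2.04, adjusted p = 0.00152) was the largest of the FATP genes, and in shScram cells it changed by -0.76 (adjusted p = 0.0873). The fall of Lpl in shScram cells (-0.72, adjusted p = 0.0190) was lost with median-ratio scaling (adjusted p = 0.103) and without replicate 2 of shScram at MCE (-0.59, adjusted p = 0.127), and became -0.40 if replicate 1 of shScram preadipocytes was left out. Acsl4 in shScram cells was at an adjusted p of 0.0506 without replicate 2 of shScram at MCE.

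From MCE to Diff, 5 of the 10 genes rose in shScram cells (Cd36, Fabp4, Lpl, Slc27a1 and Acsl1) and none fell, against 20% and 5.22% of all genes. At an unadjusted p under 0.05, 1 gene was lower, Acsl3. In shFTO cells 2 rose, Fabp4 and Slc27a1, and none fell, against 20.2% and 6.48%. Slc27a4 and Acsl4 were the 2 genes lower there at an unadjusted p under 0.05. Cd36 rose 11.6-fold in mean TPM in shScram cells and went from 1.38 to 1.97 TPM in shFTO cells (adjusted p = 0.419). Lpl rose 3.75-fold in shScram cells (log2 fold change 1.90, adjusted p = 0.000349), and its change in shFTO cells was 0.48 (adjusted p = 0.105). Acsl1 rose by 1.13 in shScram cells (adjusted p = 0.00194), while its estimate in shFTO cells was 0.00 (95% interval -0.37 to 0.38). The number of genes called at this step was 8 in shScram and 6 in shFTO cells when either or both shScram preadipocyte libraries were left out of the fit. The share of all genes called rose as well, from 25.2% to 52.0% in shScram and from 26.7% to 51.0% in shFTO cells with both left out. Over the 10 genes the median change was 0.97 in shScram and 0.17 in shFTO cells, and at the first step it was 0.46 and 0.08. Slc27a1 rose in both lines, by 1.81 and 1.90 (adjusted p = 0.00427 and 0.00297).

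The median over all genes tested was itself shifted between stages, by -0.17 and -0.18 from preadipocytes to MCE in shScram and shFTO cells, and by 0.23 and 0.17 from there to Diff. With median-ratio scaling these medians lay between -0.01 and 0.03. In shScram cells, 5 members then rose and 2 fell at the first step, and 5 rose and 1 fell at the second. In shFTO cells 4 rose and 3 fell, then 2 rose and 2 fell. With this scaling 37.6% and 22.6% of all genes were called at these steps in shScram cells, against 39.1% and 25.2% without it. In shFTO cells 28.1% and 27.8% were called, against 28.7% and 26.7%.

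**Figure D4:**
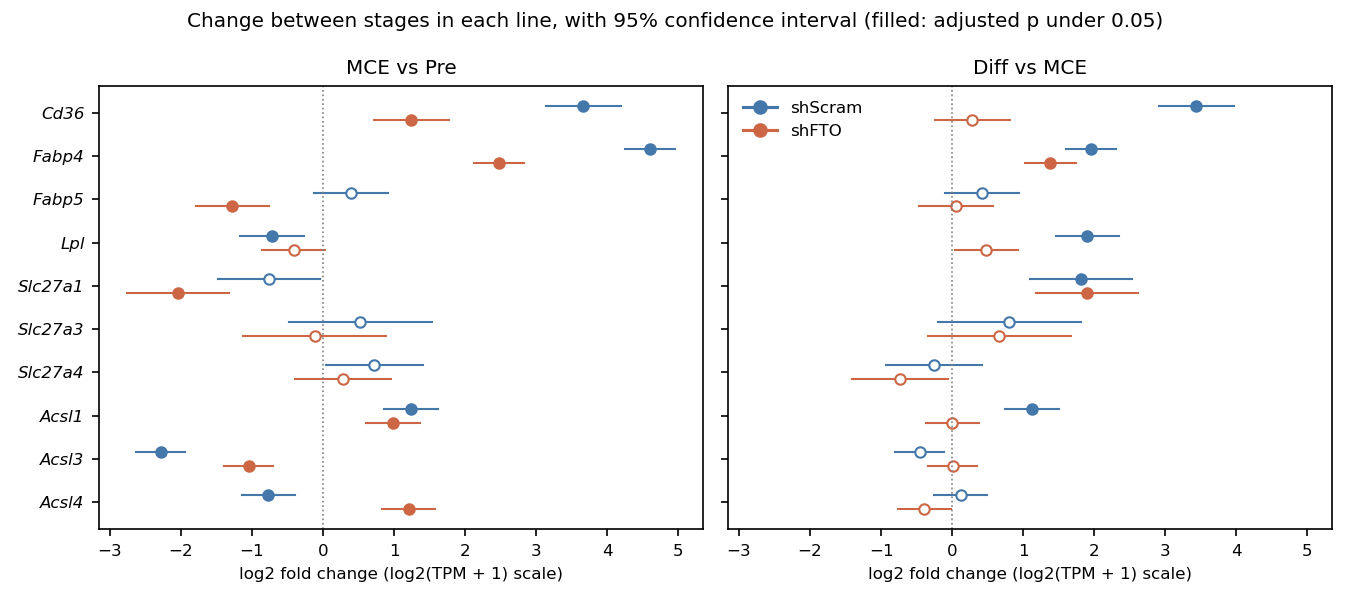
Log2 fold change of each gene between successive stages (x axis, log2(TPM + 1) scale) in shScram and shFTO cells, with bars for the 95% confidence interval and filled points for an adjusted p under 0.05. Acsl4 lies at -0.77 in shScram and 1.20 in shFTO cells in the first step, and Cd36 at 3.44 and 0.28 in the second.

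The difference between the lines was then tested as an interaction, that is, whether the effect of the knockdown differed between successive stages. From preadipocytes to MCE it became more negative for 3 of the 10 genes (Cd36, Fabp4 and Fabp5) and more positive for 2 (Acsl3 and Acsl4), against 2.59% and 2.52% of all genes. From MCE to Diff it became more negative for 3 (Cd36, Lpl and Acsl1), against 1.01% of all genes, and more positive for none, against 1.47%. No member had an unadjusted p under 0.05 in that last direction. No FATP gene was called in either interaction, and Slc27a1 had the lowest adjusted p among them, 0.144 in the first. Cd36 and Fabp4 were called in the first interaction in all 12 fits that left out 1 library. Acsl4 was too, and so was Cd36 in the second. Fabp5 was called in 6 and Acsl3 in 7 of these 12 fits, and all 10 members were called in the first interaction without replicate 2 of shScram preadipocytes, where 52.5% of all genes were called, against 5.11% with all libraries. Lpl and Acsl1 in the second interaction were each called in 2 of 12, namely without either replicate of shScram preadipocytes (where 17.1% of all genes were called, against 2.49%), and without any other library Cd36 alone was called. In the 7 other settings Lpl was called in 2 and Acsl1 in 4.

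Of 45 other genes of lipase function, fatty acid transport, acyl-CoA binding and hydrolysis, 24 passed the filter. In preadipocytes 6 of them were higher and 1 lower in shFTO cells, against 15.9% and 12.3% of all genes. At MCE 2 were higher and 1 lower, against 10.5% and 7.26%. At Diff 5 were higher, against 11.9%. Gpihbp1, which passed the filter only through shScram Diff, is left out of the lower genes of that stage. The 2 others lower there were Angptl4 and Dbi, against 9.31% of all genes. None of the other 3 FATP genes and none of the 4 fatty acid receptors listed passed it, and none of 6 further FABP genes did. Got2, listed with them, encodes mitochondrial aspartate aminotransferase, passed the filter and was not called between the lines (named after its values were seen). Dbi, which encodes the acyl-CoA-binding protein, was lower in shFTO cells at all 3 stages. Its levels were 330 and 273 against 179 and 179 TPM in preadipocytes, 366 and 380 against 150 and 127 TPM at MCE, and 317 and 260 against 203 and 156 TPM at Diff. The log2 fold changes were -0.75, -1.43 and -0.69 (adjusted p = 0.0150, 0.000648 and 0.0202). Acsbg1, a further long-chain acyl-CoA synthetase gene, was higher at all 3 stages, at 25.6 and 25.4 against 2.52 and 4.78 TPM in preadipocytes and 10.4 and 9.97 against 4.43 and 4.16 TPM at Diff. Its log2 fold changes were 2.55, 1.46 and 1.08 (adjusted p = 0.000240, 0.00288 and 0.0105). The acyl-CoA thioesterase gene Acot1 was called at MCE and Diff (0.91 and 0.66), and Acot7 and Acot8 in preadipocytes (0.57 and 1.89). The other genes called were Acbd6, which binds acyl-CoA, in preadipocytes and at Diff (1.04 each), Zdhhc5, a palmitoyltransferase that acts on CD36, and Vldlr in preadipocytes (0.92 and 0.63), and Acsl5 at Diff (0.40). Without replicate 1 of shScram preadipocytes the preadipocyte changes were 1.00 for Acot8, 0.58 for Acbd6 (not called) and 0.53 for Zdhhc5. Without either shFTO preadipocyte library Zdhhc5, Dbi, Acot7 and Acot8 were no longer called there, and without replicate 1 neither was Acbd6, while Vldlr and Acsbg1 were called in all 12 fits without 1 library. With only the preadipocyte libraries in the fit no gene of all those tested was called at that stage. At Diff, Acsbg1, Acot1, Acsl5 and Acbd6 were lost without any 1 of the 4 Diff libraries (adjusted p = 0.0543 to 0.180). Acsl5 was also lost without either shFTO MCE library (adjusted p = 0.0622 and 0.0621), Acbd6 without any 1 of the 4 MCE libraries (adjusted p = 0.0541 to 0.0547), and Dbi without replicate 1 of shScram Diff or replicate 2 of shFTO Diff (-0.55 and -0.50, adjusted p = 0.141 and 0.160).

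Finally, the genes with the most similar profile over the 12 libraries were listed for each member among 10799 genes, as a description only, since the libraries share lines and stages. The closest to Cd36 were Megf9 (Pearson r = 0.989), Fam107a and Trp53bp2, and the closest to Fabp4 were Folh1 (r = 0.993), C3 and Agt. For Fabp5 they were Hspb8 (r = 0.978), Gm6166 and Lap3, and for Lpl Ncam1 (r = 0.962), Txndc15 and Scarb2. Man2b2, Abca3 and Gm13563 were closest to Slc27a1 (first r = 0.988), Frs3, Iqsec2 and Ppm1m to Slc27a3 (0.988), and Sertad1, Chtf8 and Rbm15b to Slc27a4 (0.978). Among the synthetases, Acsl1 was closest to Zadh2 (r = 0.992), Hlcs and Pcyox1, Acsl3 to Zc3hav1 (r = 0.989), Ifi44 and Gars, and Acsl4 to Ivns1abp (r = 0.964), Hif1a and Tbx18. Between members, the 3 highest r were 0.971 for Cd36 and Acsl1, 0.941 for Fabp4 and Acsl1 and 0.919 for Cd36 and Fabp4, and the 3 lowest were -0.970 for Fabp4 and Acsl3, -0.950 for Fabp5 and Acsl4 and -0.926 for Acsl1 and Acsl3.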

How the data were processed

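Trimming was done by the authors in Trim Galore 0.6.5, alignment to GRCm38 in HISAT2 2.1.0 and quantification in StringTie 2.1.4, and TPM values were deposited for 12 input libraries. TPM keeps no read depth, so the depth behind a value is unknown, and the count test of the study's methods was not repeated. Whether strand was used in quantification is not given in the sources used here. The labels do not say that replicates were separate cultures, so p-values measure the spread between these samples, which may be technical.

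Values were transformed as log2(TPM + 1), and genes with at least 1 TPM in at least 2 libraries were kept. A fold change on this scale understates the change of low genes. All 12 libraries were fitted with limma 3.58.1 (R 4.3.3) with 1 term per group, empirical Bayes moderation with trend and Benjamini-Hochberg adjustment over 15968 genes. Log2 ratios between paralogues were tested by exact permutation within stages with Python 3.11.15, numpy 2.4.6, pandas 2.3.3 and scipy 1.17.1. Both tests were tested on simulated data with the same spread in every group, which does not cover the wider spread of the shScram preadipocyte libraries. Gene positions come from GENCODE annotation of GRCm38 and promoter windows from RefSeq. Members and gene lists were chosen with earlier results of these data known. Named were all 10 members, at most 12 listed pathway genes called between the lines with a mean of at least 5 TPM, and the 3 genes most similar to each member. Gpihbp1 was added after its values were seen. The alternatives were another pseudocount, no filter, 2 scalings, a replicate block, smaller sets of libraries and leaving out each library. Libraries of rhein-treated or immunoprecipitated samples were not analysed here.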

Additional observations from a re-analysis of the deposited data

Results flagged for a closer look

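The knockdown effect differed between successive stages, by limma's interaction test, for 8 gene and step combinations, given as the change in log2 fold change (shFTO against shScram) from the earlier to the later stage. From preadipocytes to MCE, the effect moved by -2.42 for Cd36 (adjusted p = 0.00472), by -2.13 for Fabp4 (adjusted p = 0.00129) and by -1.67 for Fabp5 (adjusted p = 0.0227). It moved by 1.24 for Acsl3 (adjusted p = 0.0153) and by 1.97 for Acsl4 (adjusted p = 0.00255). From MCE to Diff it moved by -3.15 for Cd36 (adjusted p = 0.00246), by -1.42 for Lpl (adjusted p = 0.0342) and by -1.12 for Acsl1 (adjusted p = 0.0465). Cd36 was listed at 0 in both shFTO preadipocyte libraries, so its first value depends on the pseudocount, and with 0.1 in place of 1 its adjusted p was 0.0872 in the first step and 0.0518 in the second.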

How the results depend on the processing

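The calls of Cd36, Fabp4, Fabp5, Acsl3 and Acsl4 between the lines at MCE and Diff, of Lpl at MCE and of Acsl1 at Diff held in all 7 other settings and in the 12 fits without 1 library. With only the libraries of the contrast in the fit, the number of members called went from 2 to 0 in preadipocytes between the lines, from 6 to 3 for MCE against Pre in shScram, from 5 to 8 and from 2 to 6 for Diff against MCE in shScram and shFTO, and from 5 to 3 and from 3 to 6 for the first and second interaction. It went from 7 to 10 and from 6 to 8 between the lines at MCE and Diff and from 7 to 9 for MCE against Pre in shFTO. The share of all genes called moved too, to 0% in preadipocytes, 3.16% and 50.1% for MCE against Pre, 40.4% and 54.4% for Diff against MCE, 37.0% and 41.4% between the lines at MCE and Diff, and 1.5% and 16.9% for the interactions. With both shScram preadipocyte libraries left out, Diff against MCE gave 8 and 6 and the second interaction 5, while 52.0%, 51.0% and 17.2% of all genes were called. Without the filter on low values, the preadipocyte count was 1 and the second interaction 1, with 9.96% and 1.84% of all genes called. With a pseudocount of 0.1 the second interaction was 0, with 1.27% of all genes called. With median-ratio scaling Diff against MCE in shFTO was 4, with 27.8% of all genes called. The cause was not tested.

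Leaving out 1 library leaves 1 in its group. The number of members called changed in every comparison between these fits, and the share of all genes called changed as well. The ranges of the paralogue ratios were -0.80 to -0.58 for Fabp4/Fabp5, -1.50 to -1.33 for Slc27a1/Slc27a3, -0.66 to -0.58 for Slc27a1/Slc27a4, 0.70 to 0.90 for Slc27a3/Slc27a4, -1.74 to -1.47 for Acsl1/Acsl3, -1.99 to -1.70 for Acsl1/Acsl4 and -0.27 to -0.22 for Acsl3/Acsl4. Without 1 library the preadipocyte difference between the lines ran from -0.12 (without replicate 1 of shScram) to 0.67 for Fabp5, from -0.093 (without replicate 1 of shScram) to 1.15 for Slc27a1, and from -0.21 to 0.14 for Fabp4, which was above 0 without replicate 2 of shScram (0.035) or of shFTO. Slc27a4 at Diff ran from -0.31 to 0.019, the latter without replicate 1 of shScram. None of these was called with all libraries.

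Replicate numbers are shared between groups, but the labels do not say that they pair samples, and of 15 pairs of groups 2 had a correlation of same-numbered deviations over 0.1 (range -0.29 to 0.17). With the replicate number as a block, the second interaction had 1 member called instead of 3, with 1.61% of all genes called, against 2.49%. The other counts were as without the block. Between the lines they were 2, 7 and 6, with 23.9%, 15.2% and 18.9% of all genes called. For MCE against Pre they were 6 and 7 (36.5% and 26.6%), and for Diff against MCE 5 and 2 (22.0% and 24.3%). The first interaction had 5 (3.46%). Of the pathway genes, Acsl5 and Acbd6 at Diff were no longer called with the block (adjusted p = 0.0515 and 0.0509), and without the filter Acbd6 (0.0763 in preadipocytes, 0.0766 at Diff) and Acot8 in preadipocytes (0.0523) were not. Each group had 2 libraries, and the depth behind the values is unknown.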
